A study of Mus musculus with 96 samples.

Results

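Potassium channel genes were followed through the striatum and the cerebral cortex of mice that carried or lacked a Huntington's disease knock-in allele on 3 Pms1 backgrounds. The genes were those of the count table whose symbol joins Kcn, further letters and a number, without opposite-strand transcripts, at a mean of at least 1 CPM (counts scaled to the library total) in striatum or cortex. Of 48795 genes in the table, 93 had such a name and 75 passed. Kcnj13 (1.30 CPM in cortex), Kcne4 (1.55) and Kcnmb1 (1.77, in striatum) lay just inside the threshold, and Kcnj5 (0.823), Kcnk5 (0.670) and Kcnh8 (0.628) just outside. The 75 genes comprised 24 voltage-gated pore or modifier subunits (Kcna, Kcnb, Kcnc, Kcnd, Kcnf, Kcng, Kcns and Kcnv), 11 Kcnq and Kcnh genes, 12 inward rectifiers (Kcnj), 9 2-pore leak channels (Kcnk), 7 calcium- or sodium-activated channels (Kcnma, Kcnn, Kcnt and Kcnu) and 12 auxiliary subunits (Kcnab, Kcnip, Kcne and Kcnmb). The symbol and the mean CPM chose them, with earlier results of these data known.

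Potassium channels are membrane pores that let potassium leave the cell, and so set the resting potential and end the action potential. Medium spiny neurons, the main projection neurons of the striatum, rest at a strongly negative potential held by inward rectifiers such as Kcnj2 and Kcnj4. A-type channels built from Kcnd2 with its calcium-binding partner Kcnip2, or from Kcna4, slow their climb to threshold, and the M-type current of Kcnq channels restrains repeated firing. Auxiliary subunits carry no current themselves but alter the gating or the trafficking of the pores they join.

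Total RNA was sequenced from 48 C57BL/6 mice aged 6 months, with striatum and cortex taken from each, 96 libraries in all. The 6 genotypes, with 8 animals each (4 females and 4 males), were wild type (WT), heterozygous Q140 knock-in (Q140), Pms1+/- (Pms1 het), Q140 with Pms1+/- (Q140 Pms1 het), Pms1-/- (Pms1 null) and Q140 with Pms1-/- (Q140 Pms1 null). Q140 is an allele of Htt with an expanded CAG repeat, and Pms1 encodes a protein of DNA mismatch repair. The comparisons ask how the knock-in changes each tissue and whether that change depends on Pms1.

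Library totals ran from 27993751 to 56364535 counts. Pms1 itself lay between 3.08 and 4.47 CPM in Pms1 null striatum and between 4.89 and 5.85 CPM in WT striatum, and the labels do not describe the allele, so whole-gene counts do not check the null genotype. The 12 medium spiny neuron markers summed to between 9610 and 16899 CPM over WT, Q140 and Q140 Pms1 null striatum and to between 564 and 695 CPM in WT cortex. The 8 cortical glutamatergic markers summed to between 1781 and 2103 CPM in WT cortex. In striatum they summed to between 18.4 and 27.4 CPM in 44 libraries and to between 39.3 and 57.4 CPM in 4 others, 2 Pms1 null, 1 Q140 Pms1 null and 1 Q140 Pms1 het. Calls without those 4 libraries are given with the striatal counts of genotype comparisons. All 16 animals of the 2 null genotypes have an animal code whose first number is 16 or more, against 2 of the WT, 3 of the Q140, 1 of the Q140 Pms1 het and 0 of the Pms1 het animals. The labels do not say what that number stands for. Fits with a term for early and late codes, which rests on the 6 late animals outside the null genotypes, are given with the striatal comparisons of null with other genotypes.

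The element shared by pore subunits is the selectivity filter, a short loop that strips water from potassium ions. Its coding bases are shown for 4 genes of the results whose filter lies on a single exon, with 1 gene from each of 4 classes, read from GENCODE M21 transcripts on GRCm38. Each run gives the coding strand with the 15 filter bases in capitals and 9 bases on either side.
Kcna4, chr2:107296486-107296518, + strand: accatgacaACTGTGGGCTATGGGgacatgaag
Kcnh4, chr11:100750284-100750316, - strand: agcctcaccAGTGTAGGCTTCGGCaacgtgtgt
Kcnj3, chr2:55437618-55437650, + strand: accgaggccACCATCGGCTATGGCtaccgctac
Kcnk2, second pore loop, chr1:189256572-189256604, - strand: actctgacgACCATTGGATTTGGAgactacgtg
Kcna4 and Kcnj3 share 11 of the 15 filter bases, Kcnh4 shares 10 with Kcna4 and 9 with Kcnj3, and the Kcnk2 loop shown shares 8 with Kcnh4. Over 35 pairs of loops from 8 genes, these 4 among them, 8 to 14 of the 15 bases were the same. Kcnk2 has 2 such loops in its coding sequence, and the others shown have 1.

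Most of these genes had different levels in WT striatum and WT cortex. In the fit over all 96 libraries, 24 of 75 were higher in striatum and 46 lower, where 38.5% of all genes tested were higher and 37.5% lower, and 5 did not pass. Of the 24, 6 were more than 4-fold higher in striatum, and of the 46, 19 were more than 4-fold higher in cortex. Of the 75, 6 reached 1 CPM in 1 tissue only, so that the rule itself favoured a tissue difference for them, and 5 of these (Kcng4, Kcnj6, Kcnj13, Kcnk4 and Kcnmb2) are among the 19. The median log2 difference of the 75, striatum minus cortex, was -0.69 and that of all genes 0.02.

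Kcnip2, Kcnj4, Kcnab1 and Kcnd2 had the highest levels per transcript length in WT striatum. FPKM, the deposited fragment counts scaled to transcript length and library size, were 118 ± 3.16 (SD, n = 8) for Kcnip2, 108 ± 2.93 for Kcnj4, 69.4 ± 1.95 for Kcnab1, a cytoplasmic beta subunit of Shaker-type (Kcna) channels, and 54.3 ± 2.06 for Kcnd2. Kcnab2, the next in order at 53.9 ± 0.924, differed from Kcnd2 by less than the spread of Kcnd2 between animals. In WT cortex the order began with Kcnab2, another beta subunit, at 97.7 ± 3.71 FPKM, then Kcnj9, a G-protein-gated rectifier, at 64.7 ± 3.47, and Kcnab3 at 58.0 ± 5.65. Kcnab3 and Kcnh3, the next in that order at 56.1 ± 3.07, differed by less than the spread of Kcnab3 between animals. By class, the highest in striatum were Kcnd2, Kcnh3, Kcnj4, Kcnk1, Kcnt1 and Kcnip2, and in cortex, among others, Kcnh3, Kcnj9, Kcnk1, Kcnt1 and Kcnab2.

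Genes of the same subfamily parted between the tissues. Among inward rectifiers, on counts scaled over both tissues, Kcnj2 had 88.8 to 109 CPM (median 95.2) in WT striatum and 15.5 to 21.8 CPM (median 17.7) in WT cortex. The log2 difference was 2.43 ± 0.07 (SE; edgeR adjusted p = 6.42e-49), and Kcnj4 differed by 1.13 ± 0.03. The 3 G-protein-gated rectifiers above the threshold ran the other way: Kcnj6 had 0.639 to 0.828 CPM in striatum and 32.8 to 42.7 in cortex, a log2 difference of -5.61 ± 0.09, and Kcnj3 and Kcnj9 differed by -3.41 ± 0.05 and -2.65 ± 0.03. Kcnj13 (-4.01 ± 0.59) and Kcnj6 entered through cortex alone, so their direction was favoured by the rule. Kcnj5, below the threshold, had 0.823 CPM in striatum and 0.205 in cortex over all genotypes. No WT library of one tissue reached into the range of the other for any of these.

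Among Shaker-type genes, Kcna5 and Kcna4 were higher in striatum by 5.00 ± 0.15 and 2.56 ± 0.05 on the log2 scale. Kcna5 had 33.4 to 48.2 CPM there and 0.791 to 1.66 CPM in cortex, while Kcna1 lay at 106 to 128 CPM in striatum and 101 to 135 in cortex and was not called (-0.01 ± 0.05, edgeR adjusted p = 0.85). Of the auxiliary genes, Kcnab1 differed by 2.78 ± 0.04 and Kcnip2 by 1.53 ± 0.05, while Kcnab3 differed by -4.11 ± 0.12. Kcnk2, a mechanically gated leak channel, differed by 1.94 ± 0.06, Kcnn3, a small-conductance calcium-activated channel, by 2.13 ± 0.06, and Kcnk4 by -4.95 ± 0.08. The Kcnc genes were all higher in cortex, Kcnc4 by the most (-3.98 ± 0.08) and Kcnc1 by the least (-1.34 ± 0.04). With the animal as a replicate block, the paired fit called 70 genes, as did the unpaired one.

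**Figure D1:**
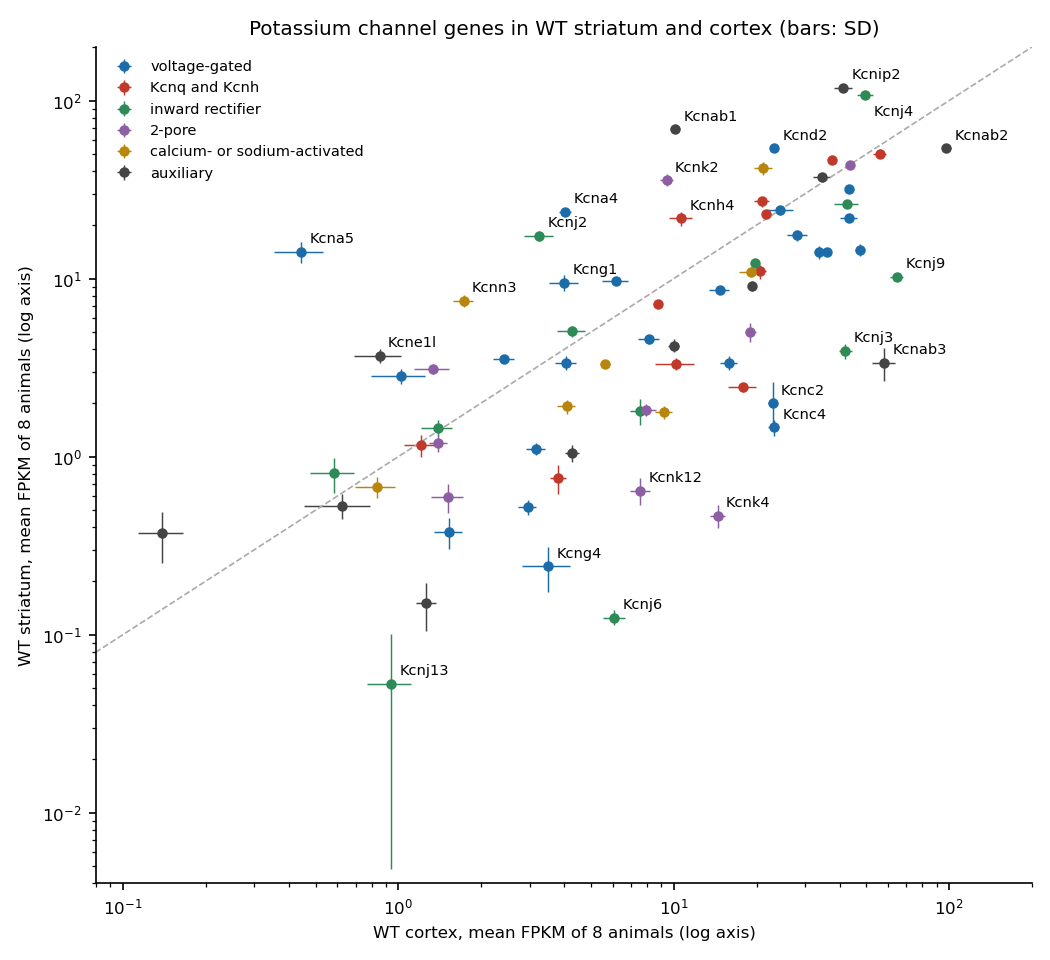
Mean FPKM of each of the 75 genes in WT cortex (x, log axis) against WT striatum (y, log axis), 8 animals each, with SD bars, coloured by class; the dashed line marks equal levels. Kcnip2, Kcnj4, Kcnab1 and Kcna5 lie above the line, and Kcnj6, Kcnab3, Kcnk4 and Kcnc4 below it.

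In striatum the knock-in lowered more of these genes than it raised. Of 74 tested (Kcnj13 was too low), 23 were lower in Q140 than in WT and 6 higher at a Benjamini-Hochberg adjusted p below 0.05, where 15.4% of all genes were lower and 15.9% higher. Fitted without composition scaling the split was 18 lower and 11 higher, and on the deposited FPKM 18 lower and 10 higher. The median log2 fold change of the 74 was -0.06 and that of all genes 0.01. Leaving out the 4 libraries with cortical markers gave 28 calls, 22 lower and 6 higher.

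By class, lower and higher calls were 8 and 1 of 24 voltage-gated genes, 5 and 2 of 11 Kcnq and Kcnh genes, 2 and 1 of 11 inward rectifiers, 2 and 0 of 9 leak channels, 1 and 2 of 7 calcium- or sodium-activated channels, and 5 and 0 of 12 auxiliary genes. Calls held in all 14 other fits for 15 of the 29 genes. Among them were Kcna4, Kcnab1, Kcnab2, Kcnd1, Kcnd2, Kcng1, Kcnh3, Kcnh4, Kcnip2, Kcnip3, Kcnj3, Kcnj4 and Kcnq5. Among the calls often lost were Kcng4 and Kcnj2 (8 of 14 each), Kcns2 (7) and Kcnq3 (6).

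**Figure D2:**
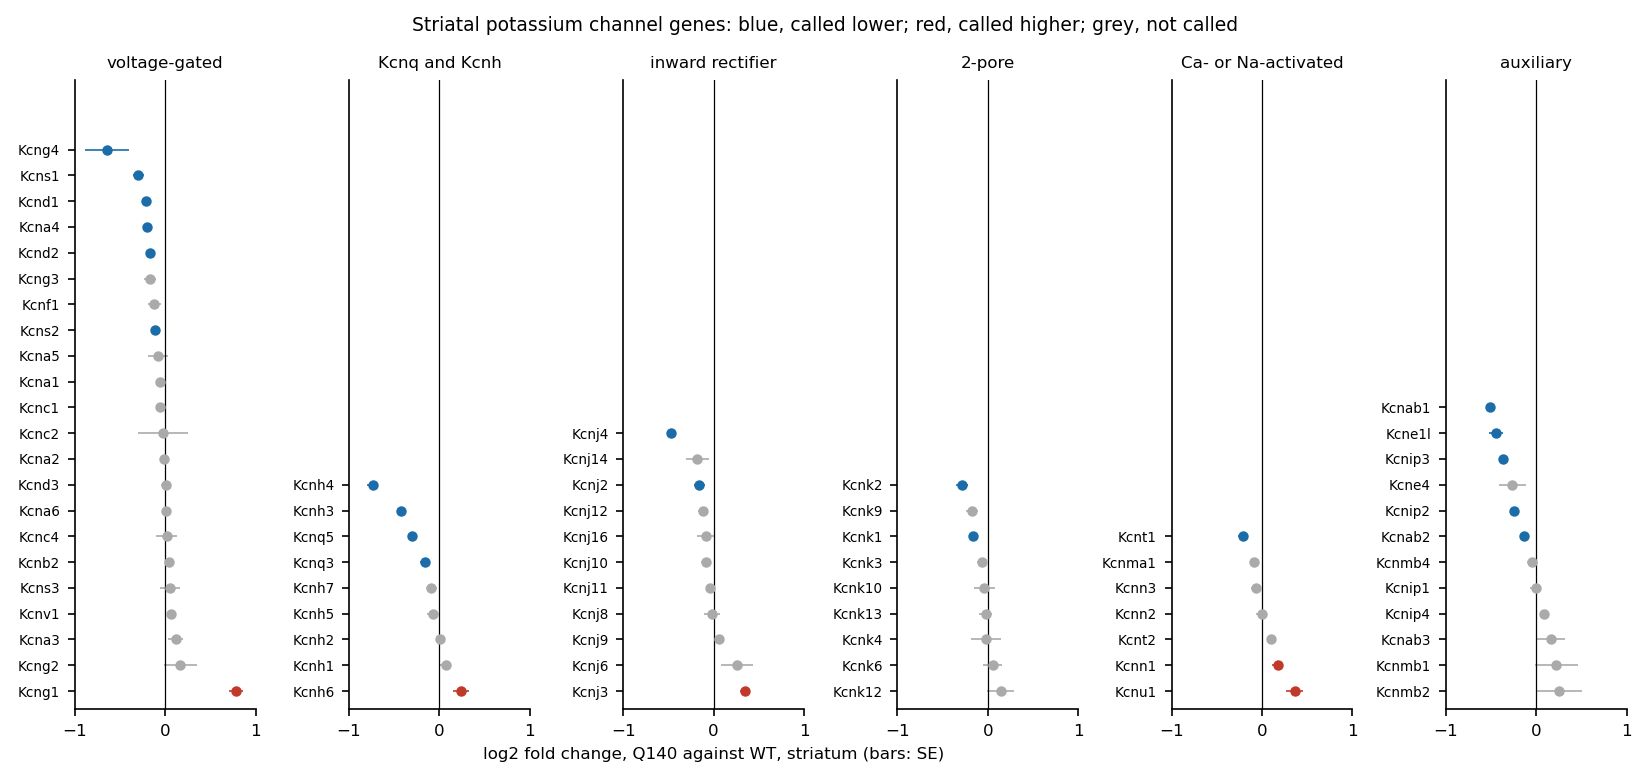
The log2 fold change of Q140 against WT in striatum (x, with SE bars) for the genes shown, 1 panel per class and sorted within it. Kcnh4 (-0.74) and Kcng1 (0.78) lie farthest from 0.

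Among pore subunits, the ether-a-go-go relative Kcnh4 (chr11:100740376-100759942 on GRCm38, - strand) fell the most. It had 77.4, 87.1 and 99.8 CPM (lowest, median and highest animal) in WT and 46.1, 51.1 and 61.5 CPM in Q140. The groups did not overlap, and the log2 fold change was -0.74 ± 0.06 (SE; edgeR adjusted p = 8.71e-13). Its nearest relative in the list, Kcnh3 (chr15:99224861-99242817), had 175, 180 and 211 CPM in WT and 128, 139 and 147 CPM in Q140. It fell by 0.43 ± 0.04 on the log2 scale, again with no overlap. The remaining Kcnh genes, Kcnh1, Kcnh2, Kcnh5 and Kcnh7, were not called (0.07, 0.00, -0.07 and -0.09), and Kcnh6, at 3.41 to 5.00 CPM in WT and 4.34 to 5.37 CPM in Q140, was higher by 0.24 ± 0.09.

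Kcnq5 and Kcnq3, pore subunits of M-type channels, fell. Kcnq5 had 173, 179 and 191 CPM in WT and 129, 148 and 159 CPM in Q140, a change of -0.30 ± 0.03 with no overlap (edgeR adjusted p = 9.31e-10). Kcnq3 changed by -0.16 ± 0.05 with overlapping groups.

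Of the inward rectifiers, Kcnj4 (chr15:79483714-79505241) had 231, 234 and 248 CPM in WT and 146, 176 and 183 CPM in Q140. Every Q140 animal was below every WT animal, and the fold change was -0.47 ± 0.04 (edgeR adjusted p = 4.21e-15). Kcnj2 changed less, by -0.16 ± 0.06, from a WT range of 89.5 to 110 CPM to a Q140 range of 73.5 to 107 (edgeR adjusted p = 0.0328). Kcnj3 (chr2:55435970-55598145), a subunit of G-protein-gated channels that dampen excitability, rose from 19.5, 20.0 and 25.0 CPM to 24.7, 26.3 and 30.2 CPM. That change was 0.35 ± 0.05, and the highest WT animal reached above the lowest Q140 animal. Its partners Kcnj6 and Kcnj9 were not called (0.26 ± 0.17 and 0.06 ± 0.04), nor was the astrocytic Kcnj10 (-0.08 ± 0.05).

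Of the A-type pores, 3 fell by small amounts. Kcnd2 changed by -0.17 ± 0.03, Kcnd1 by -0.22 ± 0.05 and Kcna4 by -0.20 ± 0.04, each with overlapping groups. Kcnd3 (0.01 ± 0.05) and Kcnc4 (0.02 ± 0.11) were not called. The modifier subunits that join Kcnb pores went both ways. Kcng1 (chr2:168260117-168281736) had 36.9, 43.3 and 51.5 CPM in WT and 66.6, 74.9 and 82.0 CPM in Q140, so that the Q140 mean was 172% ± 12.0 (SD) of the WT mean. It rose by 0.78 ± 0.08 (edgeR adjusted p = 2.48e-11) with no overlap, while Kcns1 fell by 0.30 ± 0.06, also without overlap. Kcng4 fell by 0.64 ± 0.24 at no more than 1.24 CPM in any WT animal, and this call did not hold in 8 of 14 fits. Kcnc1 (-0.06 ± 0.05), Kcna1 (-0.06 ± 0.03) and Kcna2 (-0.01 ± 0.03) were not called.

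Of the leak channels 2 of 9 were called, and of the calcium- or sodium-activated channels 3 of 7. Kcnk2 changed by -0.28 ± 0.07 and Kcnk1 by -0.17 ± 0.04, both with overlapping groups. Kcnt1, a sodium-activated channel, had 377, 397 and 453 CPM in WT and 307, 344 and 402 CPM in Q140 (-0.22 ± 0.05). Kcnu1, a relative of Kcnma1 known from sperm, rose by 0.36 ± 0.09, from 2.29 to 3.35 CPM in WT to 2.98 to 3.79 CPM in Q140, and Kcnn1 by 0.17 ± 0.06. Kcnma1, the large-conductance calcium-activated pore, was not called (-0.08 ± 0.04, edgeR adjusted p = 0.0755).

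Auxiliary subunits were called in 1 direction only. Kcnab1 (chr3:65109384-65378223) had 562, 615 and 632 CPM in WT and 396, 436 and 453 CPM in Q140, a fall of 0.50 ± 0.04 on the log2 scale with no overlap (edgeR adjusted p = 6.99e-16). Kcnip3, a calcium-binding partner of Kcnd pores, went from 124, 135 and 145 CPM to 91.0, 107 and 117 CPM (-0.37 ± 0.04). Kcnip2 (chr19:45791839-45816061) went from 409, 415 and 448 CPM to 333, 356 and 390 CPM (-0.24 ± 0.04). The groups did not overlap for either. Kcnab2 changed by -0.14 ± 0.03 and the small membrane subunit Kcne1l by -0.44 ± 0.08 at a WT median of 5.71 CPM. The remaining 7 auxiliary genes, among them Kcnip4 (0.09 ± 0.03) and Kcnab3 (0.16 ± 0.16), were not called. Without composition scaling, 5 auxiliary genes were lower and 1 was higher.

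Medium spiny neuron markers were mostly lower in Q140 too. Of 12 medium spiny neuron markers, 11 were lower in Q140 than in WT and 1 higher, and their summed level was 15006 to 16899 CPM in WT and 9610 to 10936 CPM in Q140. Calls were 3 lower of 12 interneuron, 2 of 8 astrocyte, 5 of 8 microglial and 4 of 8 endothelial or mural markers. They were 1 lower of 8 oligodendrocyte and 0 of 4 oligodendrocyte precursor markers, and 2 higher of 7 cortical glutamatergic markers. Of all genes, 15.4% were lower and 15.9% higher. The interneuron sum was 974 to 1046 CPM in WT and 964 to 1044 CPM in Q140. In these bulk samples, fewer cells of a type and less RNA per cell cannot be told apart, and the part of cell makeup in the results was not tested. Exons of 25 of the 75 genes overlap an exon of another annotated gene, 10 of them among the 29 called, including Kcnab1, Kcnh3, Kcnj3 and Kcnq5, and no source used here gives the strand setting of the counting, so these values are uncertain.

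Partners of these channels outside the naming pattern were read from a list of 34 genes, of which 32 were tested. In Q140 striatum 12 were lower and 5 higher, where 15.4% of all genes were lower and 15.9% higher. The lowest were Abcc8, the sulfonylurea receptor that joins Kcnj11 (-0.37 ± 0.06), and Dlg4, a postsynaptic scaffold that binds channel tails (-0.28 ± 0.03). The highest were Kcnrg at a mean of 0.0807 CPM in WT (1.11 ± 0.35), Lrrc55, an auxiliary subunit of Kcnma1 channels (0.54 ± 0.07), and Dpp10, a membrane partner of Kcnd2 (0.49 ± 0.06). Kcnj11 itself was not called (-0.04 ± 0.03).

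The knock-in effect was measured again on 2 other backgrounds with no animal in common. Between Q140 Pms1 het and Pms1 het striatum, 18 of 74 genes were lower and 6 higher, where 12.1% and 12.8% of all genes were. Without composition scaling the split was 13 lower and 11 higher, and without the 4 libraries with cortical markers 21 genes were called. Between Q140 Pms1 null and Pms1 null striatum, 8 were lower and 3 higher, where 5.47% and 5.59% of all genes were. Without the 4 libraries with cortical markers 7 were lower and 3 higher.

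Of the 29 genes called for Q140 against WT, 21 (72.4%) were also called on the Pms1 het background, which is 87.5% of the 24 called there, all in the same direction. Of all 5909 genes called for Q140 against WT, 58.0% were called again there, which is 73.0% of those called on that background. On the Pms1 null background, 9 of the 29 (31.0%) were called again, 81.8% of the 11 called there, all in the same direction, where 26.8% of all genes called for Q140 against WT were called again, 75.6% of those called there. Among these 9 were Kcnh4, Kcnab1, Kcnj4, Kcnh3 and Kcnt1, all lower, and Kcng1 and Kcnj3, both higher. Kcnh4 changed by -0.74 ± 0.06, -0.68 ± 0.06 and -0.35 ± 0.06 with 2, 1 and 0 copies of Pms1, and Kcnj4 by -0.47 ± 0.04, -0.28 ± 0.04 and -0.17 ± 0.04. Kcng1 changed by 0.78 ± 0.08, 0.60 ± 0.08 and 0.53 ± 0.08, and Kcnt1 by -0.22 ± 0.05, -0.27 ± 0.05 and -0.25 ± 0.05. The knock-in effect with 1 copy was not tested against that with 2. For Kcnj4, Q140 Pms1 het differed from Q140 by 0.09 ± 0.04 and Pms1 het from WT by -0.10 ± 0.04. Neither was called. Kcnab3 (0.45 ± 0.16) and Kcnip4 (0.11 ± 0.04) were called higher on the Pms1 het background, and Kcnip4 (0.11 ± 0.04) also on the null background, where Kcna1 was lower (-0.11 ± 0.03). The groups overlapped for Kcnab3, with 7.23, 9.02 and 14.1 CPM in Pms1 het and 8.80, 11.2 and 25.5 CPM in Q140 Pms1 het.

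**Figure D3:**
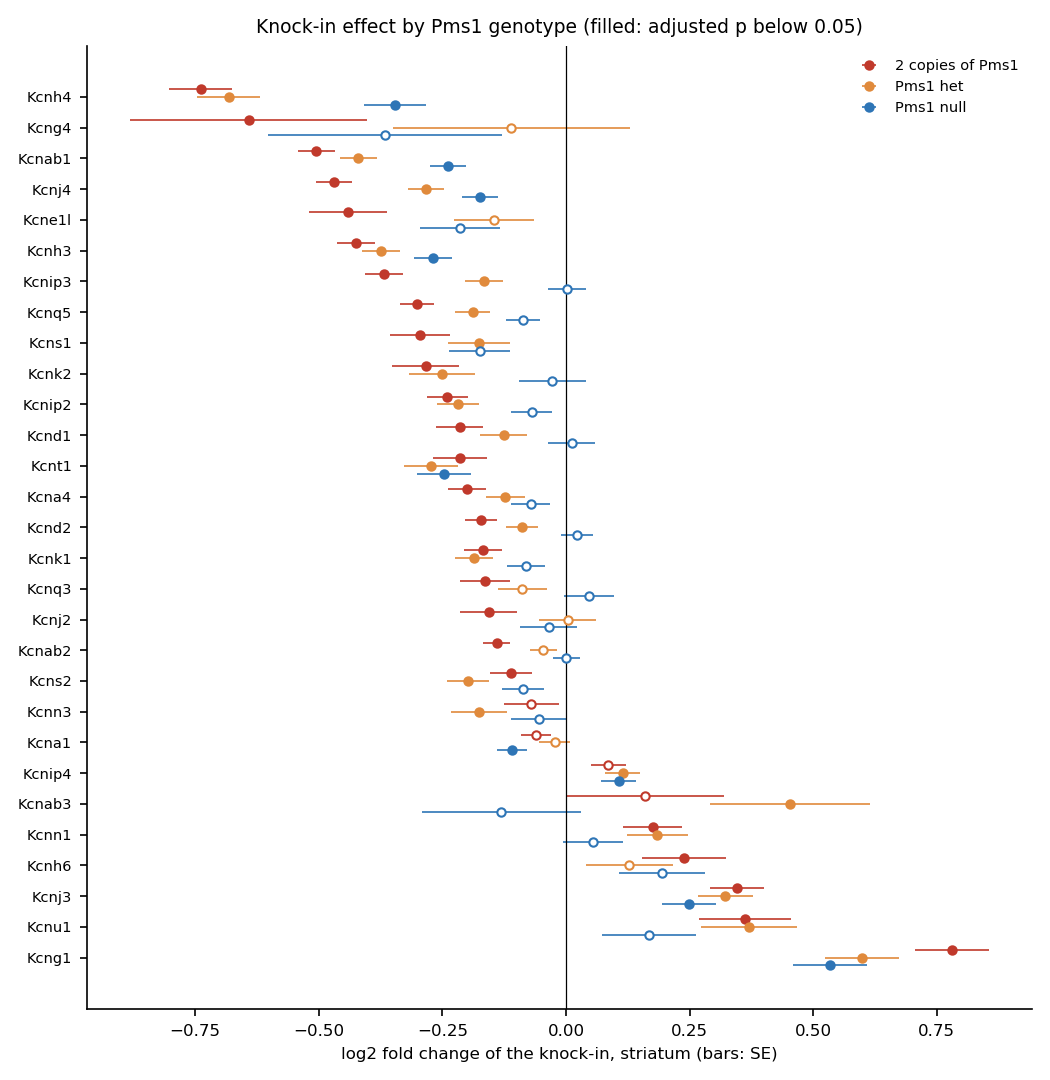
The log2 fold change of the knock-in in striatum (x, with SE bars) on 3 Pms1 backgrounds for genes called on at least 1 of them; filled points passed the adjusted p of 0.05. Kcnh4, Kcnab1, Kcnj4 and Kcnh3 are filled and negative on all 3, and Kcng1 and Kcnj3 filled and positive.

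The calls on the Pms1 het background were read against the tissue difference in WT animals, a comparison that shares no animal with it. Of 24 members higher in WT striatum, 14 (58.3%) were lower with the knock-in and 1, Kcng1, was higher. Of 45 higher in WT cortex, 3 (6.67%) were lower and 5 (11.1%) higher. Over all genes, 19.2% of those higher in striatum were lower with the knock-in and 8.32% higher, and of those higher in cortex 7.85% were lower and 20.6% higher. Without composition scaling the counts were 10 lower and 1 higher of 24, and 2 lower and 10 higher of 45. Among the 14 were Kcna4, Kcnab1, Kcnd1, Kcnd2, Kcnh4, Kcnip2, Kcnip3, Kcnj4, Kcnk2, Kcnn3, Kcnq5, Kcns2 and Kcnt1. Kcna5, the gene with the largest striatal excess, was not among them (Q140 against WT, -0.08 ± 0.11).

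**Figure D4:**
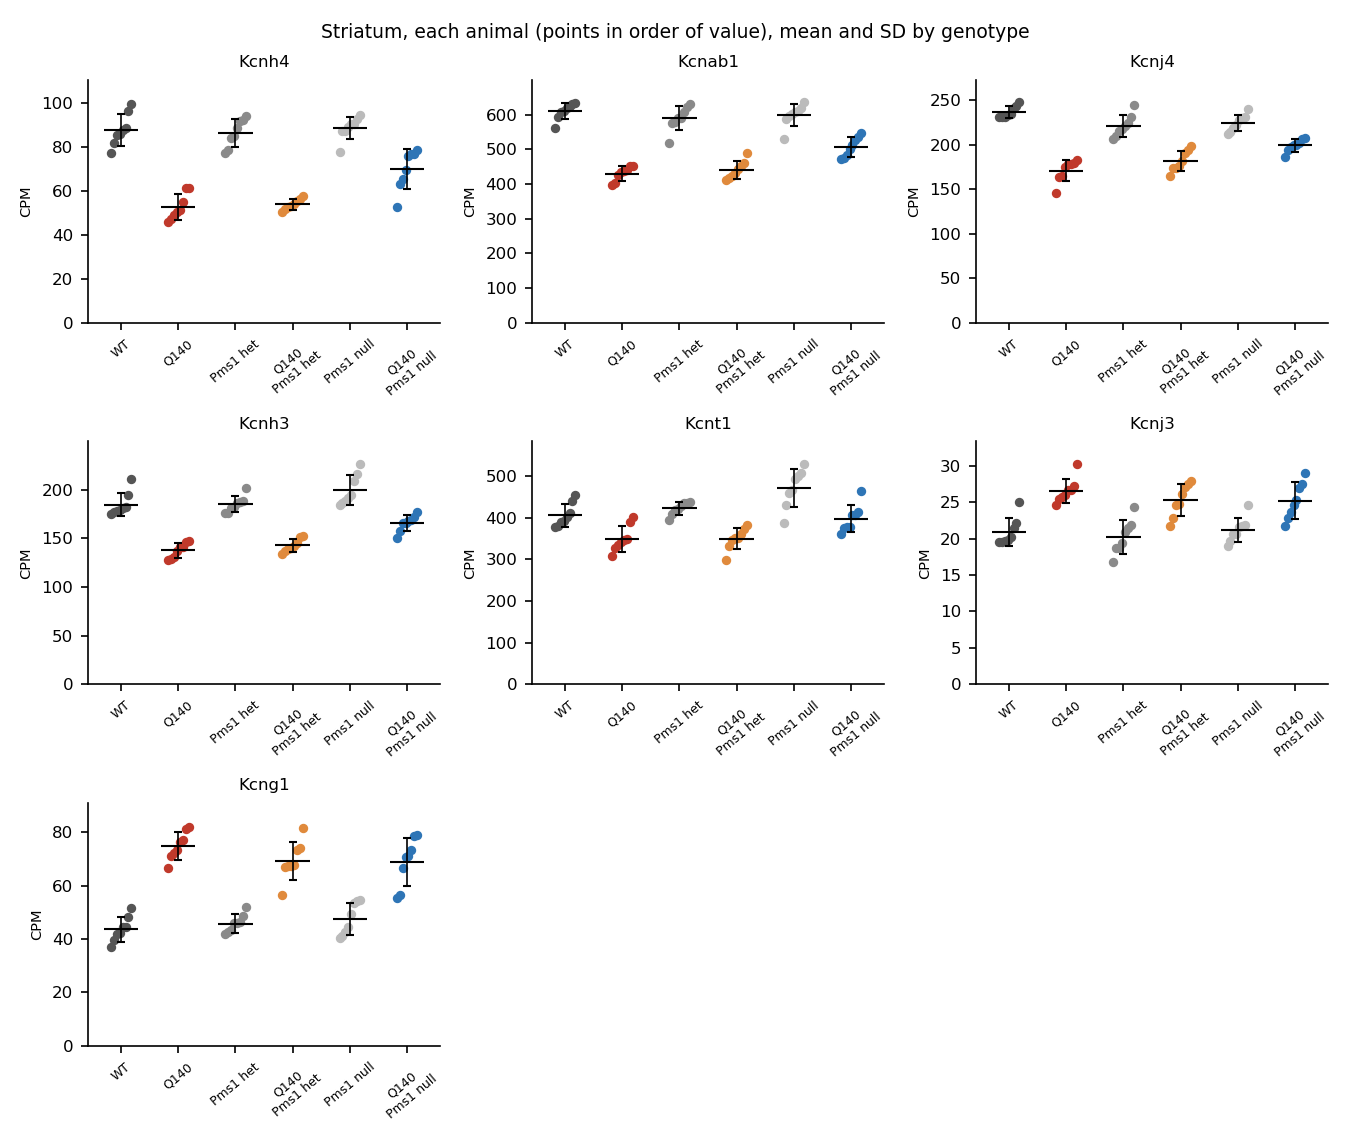
Striatal CPM of every animal (points, in order of value) with mean and SD for genes called on all 3 backgrounds, by genotype (x), 8 animals each, y axes from 0. For Kcnh4, Kcnab1 and Kcnj4 every Q140 animal lies below every WT animal, and for Kcng1 every Q140 animal lies above.

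Promoters of 4 genes are shown because these genes moved in striatum: Kcnh4 and Kcnj4 fell and Kcnj3 rose on all 3 backgrounds, and Kcnip2 fell in Q140 and was higher again in Q140 Pms1 null. Each run is 300 bases from RefSeq on GRCm38.p6, 250 before to 50 after the annotated start, 5′ to 3′ on the gene's strand. Capitals mark GGGCGG (the GC box bound by Sp factors) or TGACG (the core of a cAMP response element) on either strand.
Kcnh4, chr11:100759729-100760028, - strand: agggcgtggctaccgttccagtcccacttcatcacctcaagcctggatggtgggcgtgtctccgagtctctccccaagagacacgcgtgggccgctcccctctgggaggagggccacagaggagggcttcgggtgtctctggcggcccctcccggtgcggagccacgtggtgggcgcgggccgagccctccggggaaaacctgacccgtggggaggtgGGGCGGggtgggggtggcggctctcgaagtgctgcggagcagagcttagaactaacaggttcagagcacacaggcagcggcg
Kcnj4, chr15:79505192-79505491, - strand: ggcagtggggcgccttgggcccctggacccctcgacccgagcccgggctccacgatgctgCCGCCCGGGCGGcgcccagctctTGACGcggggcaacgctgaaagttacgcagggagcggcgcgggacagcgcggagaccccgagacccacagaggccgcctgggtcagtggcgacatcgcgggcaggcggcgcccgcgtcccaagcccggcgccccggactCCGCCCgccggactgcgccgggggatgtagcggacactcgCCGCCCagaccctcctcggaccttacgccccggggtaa
Kcnip2, chr19:45816014-45816313, - strand: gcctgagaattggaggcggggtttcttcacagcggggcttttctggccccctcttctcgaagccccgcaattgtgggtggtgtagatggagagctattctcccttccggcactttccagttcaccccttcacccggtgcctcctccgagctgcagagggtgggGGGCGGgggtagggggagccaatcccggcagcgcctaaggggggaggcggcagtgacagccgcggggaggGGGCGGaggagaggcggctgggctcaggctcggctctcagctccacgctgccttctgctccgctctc
Kcnj3, chr2:55435720-55436019, + strand: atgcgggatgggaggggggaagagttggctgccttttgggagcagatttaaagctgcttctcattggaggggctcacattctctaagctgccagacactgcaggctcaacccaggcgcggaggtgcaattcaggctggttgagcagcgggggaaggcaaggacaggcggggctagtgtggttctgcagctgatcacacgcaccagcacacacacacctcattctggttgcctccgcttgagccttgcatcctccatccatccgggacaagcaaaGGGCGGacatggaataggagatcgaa
GGGCGG occurs 1 time in the Kcnh4 window, 4 times in that of Kcnj4, 2 times in that of Kcnip2 and 1 time in that of Kcnj3, and TGACG 1 time, in that of Kcnj4. Bases G and C made up 68.7%, 76.0%, 67.0% and 57.7% of these windows. RefSeq entries matched 53 of the 75 genes, with 76 promoters between them. GGGCGG was in 37 of the 76 (48.7%) and in 35.7% of all 32851 promoters, TGACG in 18.4% and 20.8%, and TATAAA in 5.26% and 13.6%. Among genes called lower in Q140, GGGCGG was in 13 of 25 promoters (52.0%), among those called higher in 3 of 4, and among those not called in 21 of 46 (45.7%). TGACG was in 2 of 25 (8.00%), 2 of 4 and 9 of 46 (19.6%). The letters were described and not tested.

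In knock-in animals labelled Pms1 null, a group of these genes was higher than in Q140 animals and none passed as lower. Between Q140 Pms1 null and Q140 striatum, 14 of 74 were higher and 0 lower, where 5.07% of all genes were higher and 2.03% lower. At an unadjusted p below 0.05, 19 were higher and 2 lower, and DESeq2 called 14. Without composition scaling 11 were higher and 1 lower, without the 4 libraries with cortical markers 12 were called, and in females alone 9 and in males alone 3. The 3 late-code Q140 animals were all males, and every Q140 Pms1 null animal had a late code. Sex and animal code are therefore mixed in those single-sex fits. With a term for early and late animal codes 11 were higher and 0 lower, all 11 among the 14. This comparison shares its Q140 animals with Q140 against WT, so its values are set beside those above without an overlap.

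The 14 comprised 4 auxiliary, 4 Kcnq and Kcnh, 3 voltage-gated, 1 inward rectifier, 1 leak and 1 sodium-activated gene. Kcnh4 had 52.5, 72.7 and 78.6 CPM in Q140 Pms1 null against 46.1, 51.1 and 61.5 CPM in Q140, a change of 0.41 ± 0.06 (edgeR adjusted p = 2.27e-05) with overlapping groups. Kcnip3 had 121, 131 and 138 CPM against 91.0, 107 and 117 CPM, a change of 0.31 ± 0.04 with no overlap. Kcnh3 (0.27 ± 0.04), Kcnab1 (0.24 ± 0.04) and Kcnj4 (0.22 ± 0.04) also had no animal of one group within the range of the other. Kcnip2 (0.24 ± 0.04), Kcnk2 (0.24 ± 0.07), Kcnt1 (0.19 ± 0.05), Kcnq5 (0.18 ± 0.03), Kcnd1 (0.15 ± 0.05), Kcnd2 (0.14 ± 0.03) and Kcnab2 (0.13 ± 0.03) were called with overlapping groups. Kcnt1 was also higher in Pms1 null than in WT striatum without the knock-in (0.22 ± 0.05). Its knock-in effect was -0.22 ± 0.05 with 2 copies of Pms1 and -0.25 ± 0.05 with 0. The calls of Kcnh3, Kcnip3 and Kcnj4 held in all 13 other fits, while that of Kcnd1 was lost in 8 and that of Kcnt1 in 7.

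Relative to the WT mean, Kcnip2 stood at 84.7% ± 4.02 (SD, n = 8) in Q140 and 100% ± 6.73 in Q140 Pms1 null, and Kcnip3 at 77.4% ± 6.73 and 96.1% ± 3.63. Kcnh4 stood at 60.0% ± 6.76 and 79.4% ± 10.3, Kcnab1 at 70.5% ± 3.40 and 83.1% ± 4.67, and Kcnj4 at 72.2% ± 5.16 and 84.1% ± 2.92. The gene that rose with the knock-in by most, Kcng1, stood at 172% ± 12.0 and 158% ± 20.6 and was not called. Without the knock-in, Kcnip2 had a mean of 443 CPM in Pms1 null and 421 CPM in WT striatum (0.07 ± 0.04, not called). Against WT, Q140 Pms1 null striatum had 10 genes lower and 5 higher, where 9.94% of all genes were lower and 10.1% higher, and 10 and 8 without composition scaling. With the code term 7 were lower and 4 higher, and without the libraries with cortical markers 10 and 3. Kcnh4 (-0.33 ± 0.06), Kcne1l (-0.29 ± 0.08), Kcnab1 (-0.27 ± 0.04), Kcns1 (-0.26 ± 0.06) and Kcnj4 (-0.25 ± 0.04) were lowest there, and Kcng1 (0.66 ± 0.08) highest. The medium spiny neuron markers moved with these genes: 11 of 12 were higher in Q140 Pms1 null than in Q140 and none lower, and their sum was 11328 to 13498 CPM. None of the interneuron, astrocyte, oligodendrocyte, microglial or endothelial markers was called in this comparison, nor any oligodendrocyte precursor or cortical glutamatergic marker. The cortical glutamatergic markers had a median log2 fold change of 0.29, against 0.31 for the medium spiny neuron markers. A Q140 Pms1 null library was among those with higher cortical marker sums.

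**Figure D5:**
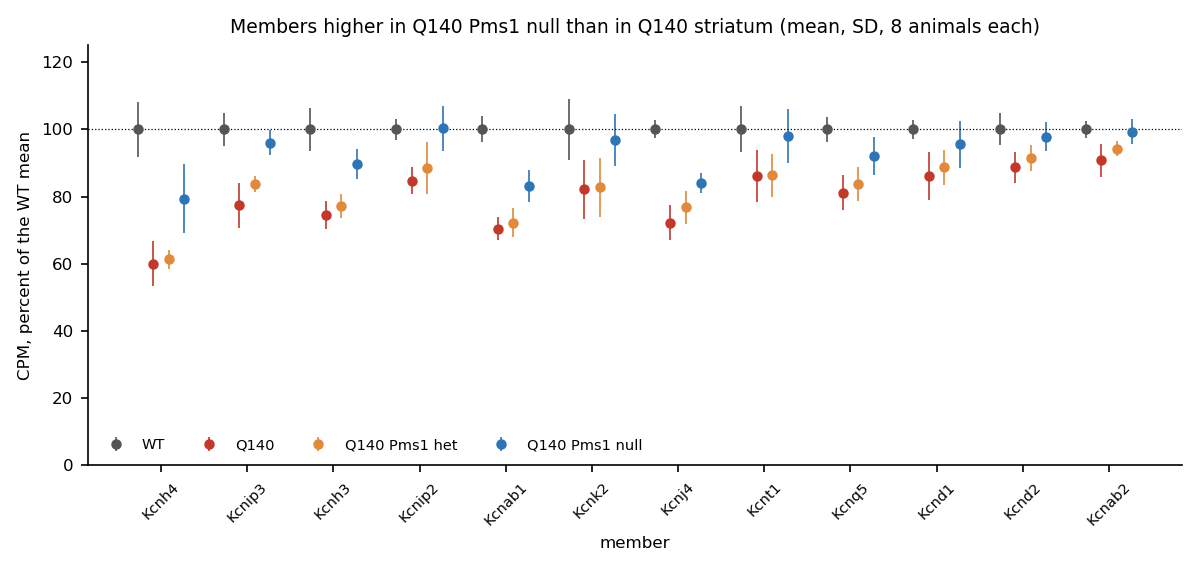
Striatal CPM as percent of the WT mean (y, from 0; mean and SD of 8 animals) for genes called between Q140 Pms1 null and Q140, in 4 genotypes. For Kcnh4 the means are 60.0% in Q140 and 79.4% in Q140 Pms1 null, and for Kcnip2 84.7% and 100%.

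The difference of the knock-in effect itself, on the Pms1 null background minus with 2 copies, was called for 9 of 74 genes, all higher, where 3.37% of all genes were higher and 1.68% lower. Among them were Kcnh4 (0.39 ± 0.09), Kcnip3 (0.37 ± 0.05), Kcnj4 (0.30 ± 0.05), Kcnab1 (0.27 ± 0.05), Kcnd1 (0.23 ± 0.07), Kcnq5 (0.21 ± 0.05), Kcnd2 (0.19 ± 0.05) and Kcnab2 (0.14 ± 0.04). Some of the 14 genes higher in Q140 Pms1 null than in Q140 were not called here. They include Kcnk2 (0.26 ± 0.10, edgeR adjusted p = 0.112) and Kcnip2 (0.17 ± 0.06, edgeR adjusted p = 0.0840). Kcnh3 (0.16 ± 0.05, edgeR adjusted p = 0.0779) and Kcnt1 (-0.03 ± 0.08, edgeR adjusted p = 0.871) are others. DESeq2 called 10. The fits without composition scaling and without the libraries with cortical markers called 7 and 9, all higher. With the code term 9 were called. At an unadjusted p below 0.05, 18 were higher and 1 lower.

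Loss of a single copy gave no call. Between Q140 Pms1 het and Q140 striatum 0 of 74 genes passed edgeR's test, as did 0% of all genes, while 9 had an unadjusted p below 0.05 and DESeq2 called 0. The fit without the libraries with cortical markers also called 0. Kcnh4 stood at 61.3% ± 2.83 of the WT mean in Q140 Pms1 het and Kcnip3 at 83.7% ± 2.40.

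Without the knock-in, few of these genes were called between Pms1 genotypes. Between Pms1 het and WT striatum 0 of 74 passed, as did 0% of all genes (5 at an unadjusted p below 0.05, 0 by DESeq2, 0 without the libraries with cortical markers). Between Pms1 null and WT striatum 3 passed, where 7.91% of all genes did. Kcnt1 was higher by 0.22 ± 0.05, with 388 to 528 CPM against 377 to 453, and Kcnf1 (-0.28 ± 0.08) and Kcnh7 (-0.21 ± 0.06) were lower, all with overlapping groups. With a term for early and late animal codes none of the 3 was called, and without the libraries with cortical markers 4 genes were called.

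The knock-in effect was also compared between the sexes. The 2 late-code WT animals were females and the 3 late-code Q140 animals males, so sex and animal code are mixed in this comparison. No gene of 74 was called for females minus males in striatum, nor any of all genes (0%), with 7 at an unadjusted p below 0.05 and 0 by DESeq2. Kcnh4 changed by -0.84 ± 0.09 in females and -0.64 ± 0.09 in males, Kcnab1 by -0.54 ± 0.05 and -0.47 ± 0.05, and Kcng1 by 0.83 ± 0.11 and 0.74 ± 0.11.

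In cortex no potassium channel gene passed the test between Q140 and WT. The count was 0 of 75, where 0.0428% of all genes were, with 7 at an unadjusted p below 0.05 and 0 by DESeq2. Kcnh4 had 35.7, 42.7 and 48.9 CPM in WT and 36.6, 41.8 and 52.1 CPM in Q140 cortex, and its fold change was 0.01 ± 0.06. Kcnab1 changed by 0.01 ± 0.03, Kcnj4 by -0.00 ± 0.03 and Kcnj3 by -0.08 ± 0.03. Averaged over the 3 Pms1 genotypes, the knock-in effect was called for 1 gene, the acid-sensitive leak channel Kcnk3 (-0.09 ± 0.03, edgeR adjusted p = 0.0473), where 1.73% of all genes were. It was lost in 5 of the other fits.

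The tissue difference was tested directly. The Q140 effect in striatum minus that in cortex was called for 24 of 75 genes, 20 lower and 4 higher, where 8.32% of all genes were lower and 4.95% higher. Without composition scaling the split was 15 lower and 10 higher, and with the animal as a replicate block 21 lower and 5 higher. Kcnh4 differed by -0.76 ± 0.09, Kcnab1 by -0.53 ± 0.05, Kcnj4 by -0.48 ± 0.05 and Kcnh3 by -0.42 ± 0.05. Kcng1 (0.68 ± 0.14), Kcnu1 (0.43 ± 0.14) and Kcnj3 (0.41 ± 0.06) were among the 4 higher ones.

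Q140 Pms1 null and Q140 cortex differed in 0 of 75 genes by edgeR, where 0.0107% of all genes differed, with 7 at an unadjusted p below 0.05 and 1 by DESeq2. Between Pms1 null and WT cortex 7 were called, where 9.58% of all genes were. Kcnt1, also higher in the striatum of these animals, had 222, 253 and 281 CPM in Pms1 null and 176, 202 and 221 CPM in WT, a change of 0.34 ± 0.05 with no overlap. Kcnc2 was higher by 0.08 ± 0.03, and Kcnj12 (-0.27 ± 0.07), Kcnf1 (-0.19 ± 0.05), Kcnv1 (-0.13 ± 0.04), Kcnc4 (-0.12 ± 0.03) and Kcnj4 (-0.09 ± 0.03) were lower. With a term for early and late animal codes 2 genes were called, Kcnt1 and Kcnt2, 1 in each direction.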

How the data were processed

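RNA-seq libraries of total RNA were made from striatum and cortex of 48 mice, and the authors deposited whole-number read counts per gene and FPKM for each library. STAR 2.7.5c, SAMtools 1.10, HTSeq 0.12.3 and GRCm38 are named in the submitters' processing notes; no source used here gives the strand setting or the annotation release. The members and lists were chosen with earlier results of these data known. The counts were fitted in R 4.3.3 with edgeR 4.0.16 (quasi-likelihood test, TMM scaling, filterByExpr) per tissue over 48 libraries with genotype and sex as terms, and over all 96 libraries for tissue comparisons, with Benjamini-Hochberg adjustment over all genes tested. A gene was called at an adjusted p below 0.05. CPM are TMM-scaled, and levels between genes are compared by FPKM only. Named genes were the 12 called members with the largest decrease and the 12 with the largest increase for Q140 against WT, 5 each way in other comparisons, the highest of each class by FPKM, up to 3 partners each way, and 12 channel genes named whatever their result (Kcnj2, Kcnj4, Kcnd2, Kcnip2, Kcna4, Kcnab1, Kcnk2, Kcnh4, Kcnq3, Kcnma1, Kcnj10 and Kcnc1). Other genes named were chosen after their values were seen. Kcnmb4os2, an opposite-strand transcript, was set aside. A few genes and sequences that enter the counts are not reported here.

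Library totals of 27993751 to 56364535 counts set the precision. Alternatives used DESeq2 1.42.0, limma 3.58.1, other scalings and filters, the deposited FPKM, each sex, animal codes, and, chosen after seeing the data, the fit without 4 striatal libraries. The tissues of an animal were paired by the animal codes in the titles. Over 48 pairs of libraries, deviations from the group means correlated at 0.115 in the median and 0.0395 at the lowest, and 32 pairs exceeded 0.1. Values for libraries of different animals were not read, so these do not check the pairing. No source says whether animals shared litters or cages, and the main tests treat them as independent. In the voom fit of limma, libraries with the same first code number correlated at 0.133 in striatum and 0.131 in cortex. The fitting script was tested on simulated counts.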

Additional observations from a re-analysis of the deposited data

Results flagged for a closer look

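Among 168 groups of 8 animals, 7 held an animal far from the rest; chance flags about 1 in 20 groups. In Pms1 null striatum the lowest animal had 529 CPM of Kcnab1 (next 586), 77.7 CPM of Kcnh4 (next 87.4) and 82.9 CPM of Kcnj2 (next 89.1). In Q140 Pms1 null striatum the highest animal had 6.23 CPM of Kcnh6 (next 5.10) and 12.6 CPM of Kcnn1 (next 10.7). The highest Q140 animal had 30.2 CPM of Kcnj3 (next 27.2), and the highest WT animal 3.35 CPM of Kcnu1 (next 2.61).

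The knock-in effect differed between groups by a test of the difference itself for 9 genes between the Pms1 null background and 2 Pms1 copies, and for 24 genes between striatum and cortex.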

How the results depend on the processing

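With the animal as a replicate block, 70 genes were called between WT tissues and 26 for the tissue difference of the Q140 effect, against 70 and 24 without it; the block applies to no comparison within a tissue. Q140 Pms1 null against Q140 had 9 calls in females and 3 in males, against 14. Those fits have fewer samples, and the late-code Q140 animals are all in the fit of males. With the code term, Pms1 null against WT had 0 calls in striatum and 2 in cortex. With it Q140 Pms1 null against Q140 had 11 calls in striatum, all higher, and the difference of the knock-in effect by Pms1 had 9. In cortex the mean knock-in effect had 2 calls by DESeq2 and 0 without composition scaling, without the low-count filter, with the code term, with voom and without the sex term. Q140 Pms1 null against Q140 cortex had 1 by DESeq2. Changes of sign were seen only in genes that were not called in the comparison concerned. For Q140 against WT, Kcnc1 was at 0.0181 without composition scaling, 0.0342 in females, 0.0152 with FPKM + 0.1, with or without the filter, and 0.0144 with FPKM + 1. For Q140 Pms1 null against Q140, Kcnc1 was at -0.0153 without composition scaling, -0.0857 in females, -0.0142 with FPKM + 0.1, with or without the filter, and -0.0134 with FPKM + 1, Kcna4 at -0.0041 in males and Kcnj10 at 0.0338 with the code term. Kcnj2 was at -0.0319 without composition scaling, -0.0316 with FPKM + 0.1, with or without the filter, -0.0301 with FPKM + 1 and -0.165 in males. The cause was not tested. Of single-gene values, 401 for Q140 against WT and 211 for Q140 Pms1 null against Q140 kept direction and call, and 52 and 37 lost the call.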
